A study of Homo sapiens with 60 samples.

Results

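MCM2, MCM3, MCM4, MCM5, MCM6, MCM7 and MCM10, genes of the helicase that unwinds DNA at replication, were followed in SH-SY5Y cells over neuronal differentiation and exposure to lead (Pb). They were chosen by gene symbol, and all 7 were found among the 37334 genes of the table. All 7 passed the filter on low values, a CPM (count scaled to the library's total of reads) of 1 or more in 3 or more libraries, which 15263 genes passed. SH-SY5Y is a human neuroblastoma line, labelled as wild type here, that can be driven towards a neuron-like state. Every group went through the same differentiation protocol, with cells of a single passage and a separate dish for each replicate. Pb was present at 0, 0.16, 1.26 or 10 µM from day 5 on and was renewed with the medium, and 3 dishes of each dose were harvested at each of 5 times, day 6, 9, 12, 15 or 18, which gave 20 groups and 60 libraries. The 0 µM dishes of the same day were the controls. All dishes hold the same tumour line, so the p-values measure the spread between dishes of that line.

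MCM2 to MCM7 form a ring of subunits that is loaded onto origins of replication in G1, a step called licensing, by the origin recognition complex with CDC6 and CDT1. In S phase CDC45 and the GINS complex join the ring to make the active helicase, and MCM10 is needed to set it in motion. The genes are driven by E2F transcription factors in cycling cells, and they are known to be shut down as neuronal precursors leave the cell cycle. In bulk RNA, fewer cycling cells and less MCM RNA in each cell cannot be told apart.

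The stretches around the members' start sites are shown because E2F words stood there in most members for which RefSeq (GRCh38.p14) gave a promoter window. The window ran from 250 bases before to 50 bases after a start, and 5 of the 7 members had one. Capitals mark the E2F words TTTCCCGC, TTTCGCGC, TTTGCCGC or TTTGGCGC on either strand, with overlapping words joined, and each stretch runs 5′ to 3′ in the direction of the gene. For MCM6 and MCM10 the stretch before the start site is given, and for the others 30 bases around a word at the start.
MCM2, chr3:127598404-127598433, plus strand: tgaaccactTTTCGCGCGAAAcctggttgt
MCM3, chr6:52284728-52284757, minus strand: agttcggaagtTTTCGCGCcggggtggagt
MCM7, chr7:100101388-100101417, minus strand: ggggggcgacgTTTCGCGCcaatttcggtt
MCM6, chr2:135876444-135876693, minus strand: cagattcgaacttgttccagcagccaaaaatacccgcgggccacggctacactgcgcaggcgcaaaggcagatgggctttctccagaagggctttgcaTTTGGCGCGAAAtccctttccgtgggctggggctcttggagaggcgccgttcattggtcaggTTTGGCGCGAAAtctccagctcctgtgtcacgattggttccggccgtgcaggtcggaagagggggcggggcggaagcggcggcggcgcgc
MCM10, chr10:13161308-13161553, plus strand: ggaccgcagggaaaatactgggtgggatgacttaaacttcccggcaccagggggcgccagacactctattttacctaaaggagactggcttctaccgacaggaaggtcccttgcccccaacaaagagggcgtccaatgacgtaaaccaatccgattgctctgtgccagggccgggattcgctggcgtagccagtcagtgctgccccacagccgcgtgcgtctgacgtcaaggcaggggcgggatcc
In MCM2 the joined words ran from base 3 to base 14 of the transcript, and in MCM3 the word shown spanned the start, from base -4 to base 4. In MCM7 the word shown ended 2 bases before the start, and MCM6 had a joined pair at -152 to -141 and another at -90 to -79. MCM3 and MCM7 each held another word further from the start that is not shown, at -174 to -167 and at -187 to -180. In the 300 bases, 4 of the 5 members held such a word, against 3.31% of all 35116 windows and 3.99% of the 27305 genes with a window. MCM7 had 3 windows, and such words stood only in window 1, the one shown. The trait is not particular to the MCM genes. Such a word was in 3 of 4 genes of CDC45 and GINS, 5 of 10 licensing genes and 8 of 20 polymerase and clamp genes. It was in 1 of 11 genes of G1/S cyclins, kinases and inhibitors. The MCM10 window held none of these letters. A match is a description of the sequence, not a site of binding. The NF-Y word CCAAT was in 4 of the 5 members, in 34.6% of all windows and in 39.7% of the genes with a window.

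By the same annotation MCM2 lies on chromosome 3 from 127598411 to 127622436, MCM3 on chromosome 6 from 52264015 to 52284742 and MCM5 on chromosome 22 from 35400140 to 35455031. MCM6 lies on chromosome 2 from 135839626 to 135876443, MCM7 on chromosome 7 from 100092728 to 100101397 and MCM10 on chromosome 10 from 13161558 to 13211110. In GENCODE 29, 1113 of the 4902 exon bases of MCM2 are shared with the antisense gene AC023593.1 and 45 with TPRA1, on the opposite strand. MCM7 shares 392 of 4386 exon bases with AP4M1, also on the opposite strand, and holds the microRNA genes MIR106B, MIR93 and MIR25 in its introns. Whether reads were counted by strand is not given in the sources used here, so reads of MCM2 and MCM7 could include some from those partners.

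The libraries held 16.6 to 50.5 M reads assigned to genes, and the member with the fewest reads in a library was MCM10, with 398. The library names of day 18 all carry 1 prefix and those of the other days another; what the prefix marks is not given in the sources used here, so day 18 and whatever goes with the prefix cannot be told apart, while the doses of a day share a prefix. All 9 neuroblastoma markers on the list were kept by the filter, with DBH at a median of 7240 CPM, and no blood marker passed (HBB listed at 0 in every library). KRT5 and KRT14 were at 28.1 and 13.8 CPM or above in every day 18 library and at most 1.08 and 0.843 CPM on earlier days; the part of this in the day 18 results was not tested. In 2 libraries, dish 1 of 0 µM at day 18 and dish 3 of 10 µM at day 6, levels fell most steeply with transcript length. Their slopes were -0.51 and -0.49 log2 units per log10 unit of length, against -0.19 for the next library. Calls of members within days, between days and in the means over days were therefore also made without them. Shares and ratios of members, the test of 10 µM by day and the other gene lists are given only with them. Smaller slopes also differed between doses. At day 12 they were lower in the 10 µM dishes (-0.12 to -0.08) than in the 0 µM dishes (-0.05 to 0.07). At day 15 they were higher (0.01 to 0.16 against -0.19 to -0.02). At day 18 the other 0 µM dishes had -0.17 and 0.01, and those of 1.26 µM 0.10 to 0.14. The part of these slopes in the differences with Pb was not tested. At day 12 a median-ratio rescaling moved the median difference of all genes from day 6 from -0.11 to -0.01, a shift of 0.10. With edgeR's TMM scaling the genes called lower and higher numbered 4134 and 4043 at day 12 against day 6 (5283 and 3300 by limma), 4000 and 3909 at day 12 against day 9 (5136 and 3167), 2708 and 2014 at day 18 against day 15 (2268 and 2811), 390 and 334 with 10 µM at day 12 (357 and 462), 542 and 265 at day 15 (486 and 381), 1945 and 2127 at day 18 (2578 and 1840), and 391 and 160 with 1.26 µM over the days (331 and 255).

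Without Pb, the 7 MCM genes held their level from day 6 to day 9 and then dropped between days 9 and 12. The largest drop was in MCM5 and MCM2, whose levels at day 12 were 31.4% and 32.7% of those at day 6, and the smallest in MCM4 and MCM10, at 56.7% and 55.2%. By day 18 the levels were 28.4% (MCM5) to 51.6% (MCM6) of the day 6 mean.

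Per kilobase of transcript, which allows genes to be compared, MCM7 was highest at day 6 without Pb, at 243 ± 13.1 CPM per kb (SD, n = 3 dishes, as for all SDs that follow). MCM3 followed with 106 ± 3.62, MCM5 with 68.8 ± 3.13, and MCM2 and MCM4 with 53.1 ± 1.57 and 50.0 ± 3.00 CPM per kb. The dishes of MCM2 and MCM4 overlapped, as did those of MCM10 (28.7 ± 1.02) and MCM6 (28.3 ± 0.932), so the order within these pairs is not resolved, while the other neighbours had dishes that did not overlap. The subunits are present in equal number in the ring, and their RNAs, scaled this way, were not. The length was that of 1 transcript a gene, from 2957 bases (MCM7) to 4183 bases (MCM4). The values depend on the transcript chosen, and the spread between dishes does not include this.

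MCM5, a subunit of the ring, had 256, 237 and 237 CPM in the 3 dishes at day 6 without Pb and 77.5, 74.0 and 77.7 CPM at day 12. All dishes of day 12 lay far under those of day 6. The log2 difference in CPM + 1 was -1.66 ± 0.0537 (SE), with a 95% interval of -1.77 to -1.55. MCM2, the neighbouring subunit, went from 197, 186 and 194 CPM to 62.3, 61.2 and 65.0 CPM, with no overlap and a log2 difference of -1.60 ± 0.0717. MCM7, the most abundant, went from 762, 707 and 688 CPM to 274, 249 and 240 CPM, a log2 difference of -1.50 ± 0.0487. These 3 genes lost the most.

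MCM3, which joins MCM5 in the ring, went from 354, 332 and 337 CPM at day 6 to 170, 165 and 161 CPM at day 12, a log2 difference of -1.04 ± 0.0526. MCM6 went from 105, 102 and 109 CPM to 50.6, 52.2 and 51.2 CPM, a log2 difference of -1.03 ± 0.0761. Both lay between the steep and the shallow members, and neither had overlapping dishes. MCM4 went from 224, 202 and 202 CPM to 114, 122 and 120 CPM, a log2 difference of -0.81 ± 0.0689. MCM10, the activator of the helicase, went from 93.6, 90.9 and 87.2 CPM to 49.0, 47.6 and 53.5 CPM, a log2 difference of -0.84 ± 0.0822. MCM4 and MCM10 had the smallest drop by day 12, and their dishes did not overlap either.

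All 7 members fell from day 6 to day 12 (limma on log2(CPM + 1), Benjamini-Hochberg adjusted over all genes kept, threshold 0.05), where 34.6% of all genes fell. All 7 were also lower at day 15 (32.2% of all genes) and day 18 (34.7%), with adjusted p between 2.53e-31 (MCM5) and 5.24e-15 (MCM6) at day 18. Against day 6, none of the 7 was called at day 9, where 2.51% of genes were lower. At day 9, 0 members were at an unadjusted p under 0.05 and 0 were called by edgeR, and the log2 differences ran from -0.08 (MCM6) to -0.01. Between days 9 and 12 all 7 fell (33.7% of all genes), with log2 differences from -0.74 (MCM4) to -1.65 (MCM5). The median over the 7 members was -1.04 at day 12 against day 6, and -0.11 over all genes.

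From day 12 to day 15, 5 of the 7 fell further, against 14.8% of all genes. MCM4 fell by 0.61 (adjusted p = 6.57e-10) and MCM10 by 0.48 (adjusted p = 5.61e-06), more than MCM5 (-0.28), MCM2 (-0.23) and MCM3 (-0.14). MCM6 (-0.17, adjusted p = 0.0692) and MCM7 (-0.11, adjusted p = 0.0787) did not pass by limma and passed with edgeR (0.0269 and 0.0319). From day 15 to day 18, where the library name prefix also changes, 4 of the 7 rose, against 18.4% of all genes: MCM6 by 0.26, MCM7 by 0.24, MCM3 by 0.14 and MCM5 by 0.14. With edgeR the adjusted p of MCM3 and MCM5 were 0.182 and 0.235, and they also missed the threshold without a filter, with rescaling or with those 2 length-dependent libraries left out. With only the compared groups fitted none of the 4 passed (MCM6 0.0577, MCM7 0.0614, MCM3 0.273, MCM5 0.305). The G2/M markers MKI67, TOP2A, CCNB1, BIRC5, CDK1 and AURKA did not follow this last step: 6 of 6 fell from day 15 to day 18, against 14.9% of all genes, with a median of -0.31. The call of MCM3 from day 12 to 15 ended without dish 1 or 2 of day 12 or dish 2 or 3 of day 15 (adjusted p up to 0.166). Its call from day 15 to 18 ended without dish 2 or 3 of day 15 or dish 1 or 2 of day 18, and that of MCM5 without dish 1 or 2 of either day (up to 0.331).

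**Figure D1:**
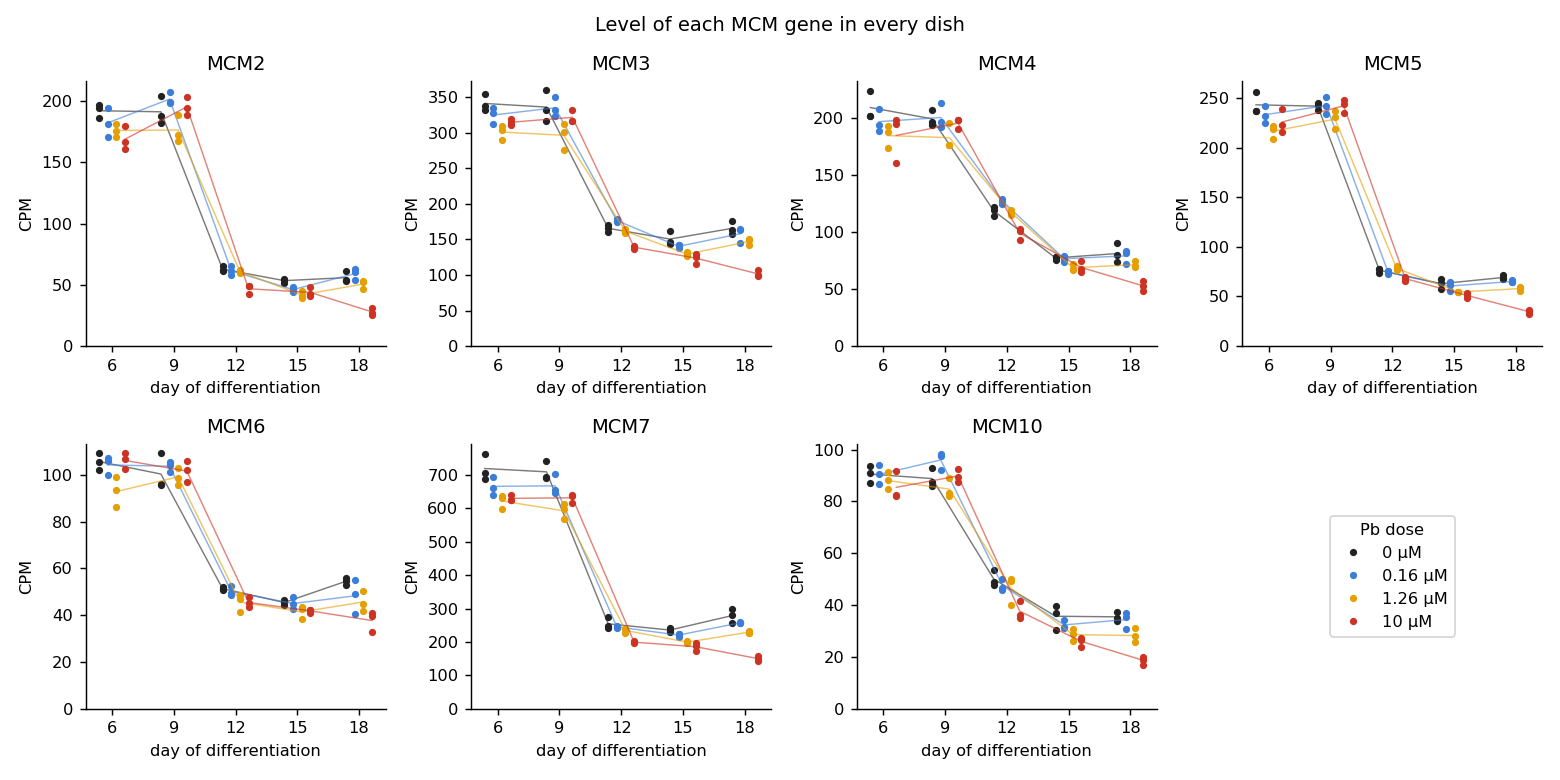
Level of the 7 genes in every dish (y axis, CPM; x axis, day of differentiation, with the 4 doses side by side and coloured by dose). Lines join group means of 3 dishes. All 7 genes stay level to day 9 and drop by day 12, and at day 18 the 10 µM dishes lie under all 0 µM dishes.

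**Figure D2:**
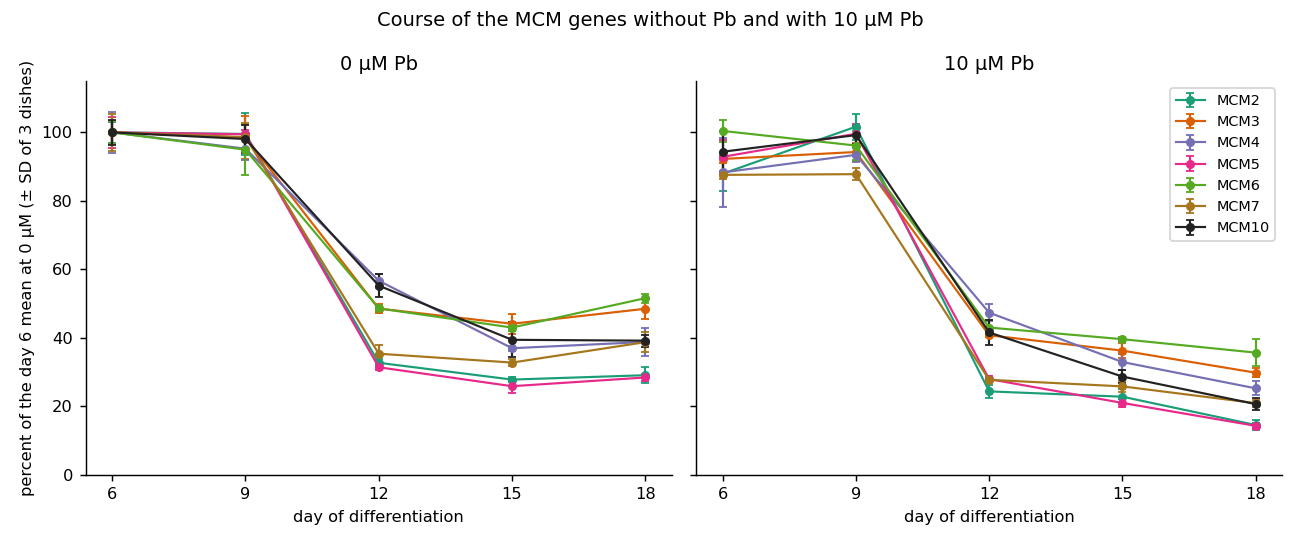
Mean level of each gene as a percentage of its own mean at day 6 without Pb (y axis) by day (x axis), at 0 µM (left) and 10 µM Pb (right); bars are the SD of 3 dishes. At 0 µM, MCM2 and MCM5 lie lowest from day 12 on, and between days 15 and 18 the curves of the 10 µM panel go down while those of the 0 µM panel rise or stay level.

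The unequal drop changed the make-up of the RNA of the ring. Of the summed CPM of MCM2 to MCM7, MCM5 made up 12.5% ± 0.036 at day 6, 9.89% ± 0.34 at day 12 and 9.13% ± 0.55 at day 18 without Pb. The share of MCM3 went the other way, from 19.4% ± 0.24 to 23.6% ± 0.16 and 24.0% ± 0.16, and that of MCM6 from 5.15% ± 0.29 to 6.80% ± 0.34 at day 18. The share of MCM7 was 44.2% ± 0.69 at day 6, 39.3% ± 1.5 at day 12 and 43.8% ± 0.91 at day 18. On these days that of MCM4 was 9.09% ± 0.16, 13.0% ± 0.79 and 9.03% ± 0.69. The share of MCM2 was 9.66% ± 0.3, 7.94% ± 0.41 and 7.18% ± 0.27. These shares are not scaled by length and are compared only within a gene.

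The log2 ratio of MCM5 to MCM3 CPM was -0.49 at day 6 without Pb, with dishes from -0.51 to -0.47. It was -1.12 at day 12 (dishes from -1.16 to -1.05) and -1.26 at day 18 (dishes from -1.36 to -1.19). With 10 µM Pb at day 18 it was -1.55, with dishes from -1.64 to -1.42, which lay under every 0 µM dish of that day. On days 6 to 15 the dishes of 0 and 10 µM overlapped in this ratio. The dishes of 0.16 µM at day 12, from -1.30 to -1.21, also lay under every 0 µM dish of their day. These ratios were described and not tested.

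**Figure D3:**
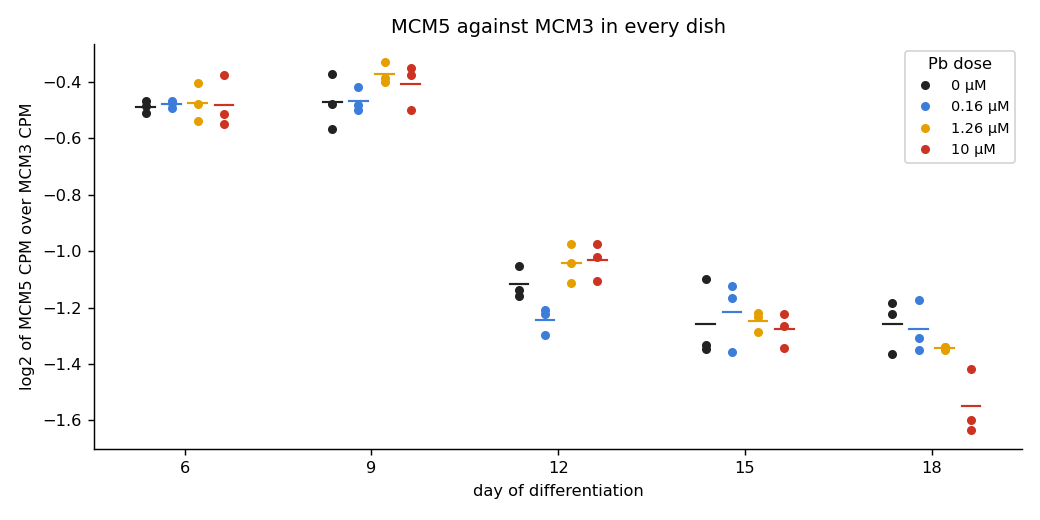
Log2 ratio of MCM5 to MCM3 CPM in every dish (y axis) by day (x axis), coloured by Pb dose; short lines are means of 3 dishes. The ratio is near -0.5 on days 6 and 9 and under -0.9 in all dishes from day 12 on, and lowest with 10 µM at day 18.

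With 10 µM Pb, 5 of the 7 MCM genes fell at day 12 (2.34% of all genes), 5 at day 15 (3.18%) and all 7 at day 18 (16.9%), when they stood at 50.0% (MCM2) to 69.2% (MCM6) of the 0 µM level. In all 7 at day 18 every treated dish lay under every control dish, as in 22.1% of all genes. The median log2 difference of the 7 was -0.88 at day 18, and -0.05 over all genes.

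MCM2 at day 18 had 53.1, 61.0 and 53.6 CPM without Pb and 25.6, 27.0 and 31.3 CPM with 10 µM. The log2 difference was -0.98 ± 0.0717, with a 95% interval of -1.12 to -0.83 and adjusted p = 5.04e-15 (limma). MCM5 had 71.6, 68.5 and 67.2 CPM against 36.8, 32.3 and 35.2 CPM, a log2 difference of -0.97 ± 0.0537 (adjusted p = 1.48e-19). In both genes every treated dish was lower than every control dish. MCM10 had 35.2, 37.3 and 34.1 CPM against 20.2, 17.0 and 18.9 CPM, a log2 difference of -0.89 ± 0.0822. MCM7 had 281, 298 and 257 CPM against 144, 149 and 158 CPM, a log2 difference of -0.88 ± 0.0487. These 4 were at 50.0% to 54.0% of the control level.

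MCM3 had 163, 176 and 157 CPM at day 18 without Pb and 98.1, 100.2 and 107 CPM with 10 µM, a log2 difference of -0.70 ± 0.0526. MCM4 had 73.4, 89.9 and 80.0 CPM against 56.9, 48.5 and 53.0 CPM, a log2 difference of -0.61 ± 0.0689. MCM6 had 55.8, 54.6 and 53.0 CPM against 39.4, 32.8 and 40.8 CPM, a log2 difference of -0.53 ± 0.0761 (adjusted p = 4.89e-07). The dishes of the 2 doses did not overlap in any of the 3. MCM3, MCM4 and MCM6, at 61.5%, 65.1% and 69.2% of control, lost less than the other 4, and the interval of MCM6 (-0.68 to -0.37) did not reach that of MCM2 or MCM5. The difference between members was not itself tested. All 7 calls held without the 2 libraries low in long transcripts, with log2 differences from -1.01 (MCM2) to -0.51 (MCM6), and when only the compared groups entered the fit, with adjusted p up to 0.0125.

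Of the earlier days, day 9 showed no call with 10 µM, where 0.963% of all genes were lower. At day 9, 1 member was at an unadjusted p under 0.05 and 0 were called by edgeR; this member, MCM7, had 743, 690 and 694 CPM without Pb and 638, 616 and 639 CPM with 10 µM (log2 difference -0.17, adjusted p = 0.0777). At day 6, after 1 day of exposure, MCM7 alone passed (-0.19 ± 0.0487, adjusted p = 0.0494), against 0.36% of all genes lower. Its dishes did not overlap, with 762, 707 and 688 CPM against 624, 625 and 640 CPM. The call ended with edgeR (adjusted p = 0.133), with rescaling (0.0975), without a filter (0.0580), without the 2 libraries low in long transcripts (0.195), with only the compared groups fitted (0.769), and without dish 1 or 2 of 0 µM or dish 2 or 3 of 10 µM (up to 0.420). MCM4 had 224, 202 and 202 CPM against 198, 195 and 160 CPM at day 6, and its lowest dish is 1 of those 2 libraries. The 10 µM dishes lay under every control dish in 4 of the 7 members at day 6 and in 1 at day 9, and in 6.03% and 5.92% of all genes.

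At day 12, 5 of the 7 fell with 10 µM, against 2.34% of all genes. MCM2 had 62.3, 61.2 and 65.0 CPM without Pb and 49.0, 42.6 and 48.8 CPM with it (-0.42 ± 0.0717, adjusted p = 0.000105). MCM10 (-0.40 ± 0.0822), MCM7 (-0.35 ± 0.0487), MCM4 (-0.26 ± 0.0689) and MCM3 (-0.25 ± 0.0526) fell as well. MCM5 (-0.17, adjusted p = 0.0580) and MCM6 (-0.17, adjusted p = 0.196) did not pass, although in all 7 members the 10 µM dishes lay under every control dish, which was so for 11.5% of all genes. The call of MCM4 ended without dish 2 or 3 of 0 µM or dish 1 of 10 µM (adjusted p up to 0.114).

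At day 15, 5 of the 7 fell, against 3.18% of all genes: MCM10 by 0.44, MCM7 by 0.34, MCM5 by 0.30, MCM2 by 0.28 and MCM3 by 0.28 on the log2 scale. MCM10 had 36.8, 39.7 and 30.6 CPM without Pb and 24.0, 27.3 and 26.7 CPM with 10 µM. MCM4 (-0.17, adjusted p = 0.172) and MCM6 (-0.12, adjusted p = 0.462) did not pass. The dishes were again separate in all 7 members, as in 10.1% of all genes. With only the compared groups fitted, and so fewer dishes to estimate the spread from, MCM7 alone was called (adjusted p = 0.0229), and the other 4 had adjusted p from 0.0670 (MCM10) to 0.101 (MCM2). The call of MCM2 also ended without dish 1 or 2 of 10 µM (up to 0.0825).

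The difference with 10 µM itself varied with the day in all 7 members by a moderated F test over the 5 days, which 21.7% of all genes passed. The adjusted p ran from 2e-13 (MCM5) to 0.000697 (MCM6). Against day 6, the difference at day 18 was larger in all 7, by 0.42 (MCM4) to 0.87 (MCM5) log2 units downward, where 11.2% of all genes had a lower value. The differences at days 9, 12 and 15 were not called against that at day 6 in any member, where 0.328%, 0.518% and 1.93% of all genes had a lower value (0, 0 and 1 called by edgeR, and 1, 3 and 4 members at an unadjusted p under 0.05). Without day 18, 2 of the 7 passed the F test, MCM2 (adjusted p = 0.00819) and MCM10 (0.0105). For MCM5, MCM3, MCM7, MCM6 and MCM4 it was then 0.0575, 0.0887, 0.108, 0.292 and 0.307.

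**Figure D4:**
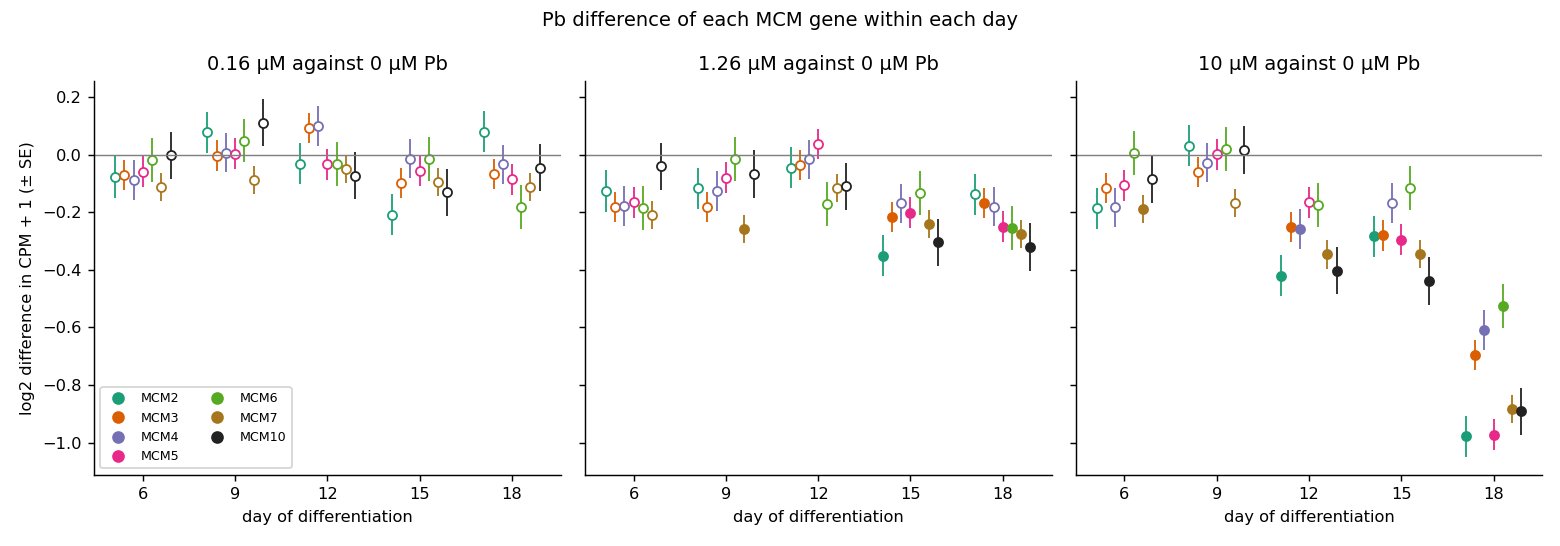
Log2 difference in CPM + 1 from the 0 µM dishes of the same day (y axis, ± SE) for each gene, by day (x axis), in 1 panel for each dose. Filled points passed an adjusted p of 0.05. With 10 µM all 7 are filled at day 18, and with 0.16 µM none is filled on any day.

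With the middle dose, 1.26 µM, 11 differences within days were called, all of them lower, 1 at day 9, 5 at day 15 and 5 at day 18. At day 18 the means of all 7 members lay between those of 0 and 10 µM, and at day 9 those of all 7 lay under those of 10 µM. MCM7 at day 18 had 234, 227 and 227 CPM with 1.26 µM, under the 281, 298 and 257 CPM of the controls (-0.28 ± 0.0487, adjusted p = 0.000814). At day 18 MCM10 (-0.32), MCM6 (-0.25), MCM5 (-0.25) and MCM3 (-0.17) fell too, 5 of the 7 in all against 3.28% of all genes. MCM4 (-0.18, adjusted p = 0.0756) and MCM2 (-0.14, adjusted p = 0.207) did not pass. At day 15 the 5 called were MCM2 (-0.35), MCM10 (-0.30), MCM7 (-0.24), MCM3 (-0.22) and MCM5 (-0.20), against 0.93% of all genes. The call of MCM10 at day 15 ended without a filter (adjusted p = 0.0605) and with the replicate block (0.0545).

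At day 9, MCM7 was the member called with 1.26 µM (611, 598 and 568 CPM, -0.26 ± 0.0487, adjusted p = 0.00254), where 0.269% of genes were lower. This call ended without dish 3 of 1.26 µM (adjusted p = 0.0725). At days 6 and 12 no member was called (0.0% and 0.0262% of genes lower), with 5 and 2 members at an unadjusted p under 0.05 and 0 called by edgeR on either day. Of the 11 calls within days, 7 were left without dish 1 of 0 µM or dish 2 of 1.26 µM at day 15, or without dish 1 of 0 µM at day 18. None was left with only the compared groups fitted (adjusted p from 0.125 to 0.395). Without the 2 libraries low in long transcripts, MCM3 and MCM6 at day 18 had adjusted p of 0.0791 and 0.119, and MCM4 passed (0.0230).

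The lowest dose, 0.16 µM, gave no call in any member on any day. From day 6 to day 18, in order of time, the genes called lower made up 0.0%, 0.0%, 0.0197%, 0.0131% and 1.15% of all genes. The members at an unadjusted p under 0.05 numbered 1, 0, 0, 1 and 2, and edgeR called 0. MCM7 at day 18 had 257, 260 and 256 CPM with 0.16 µM, against 281, 298 and 257 CPM without, a log2 difference of -0.11 (95% interval -0.21 to -0.01, adjusted p = 0.156). Without dish 3 of 0 µM at day 18 MCM7 passed (adjusted p = 0.0187), and without dish 3 of 0.16 µM MCM6 passed (0.0350).

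Averaged over the 5 within-day differences, all 7 members fell with 10 µM, against 8.13% of all genes. The largest was MCM7 (-0.39 ± 0.0218, adjusted p = 1.63e-18), followed by MCM2 (-0.37), MCM10 (-0.36), MCM5 (-0.31), MCM3 (-0.28), MCM4 (-0.25) and MCM6 (-0.16 ± 0.0340, adjusted p = 0.000554). With 1.26 µM all 7 fell as well, against 2.17% of all genes, from -0.22 (MCM7) to -0.13 (MCM4 and MCM5). With 0.16 µM none was called, against 0.0655% of all genes lower. There 1 member, MCM7, was at an unadjusted p under 0.05 (-0.09, 95% interval -0.13 to -0.05, adjusted p = 0.0642), and edgeR called it (0.0497). The intervals of the other 6 ran from -0.11 to 0.03.

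Per dose step, from 0 to 0.16, 1.26 and 10 µM, the slope was negative in all 7, against 8.39% of all genes, from -0.13 ± 0.00689 (MCM7) to -0.06 ± 0.0108 (MCM6). Group means fell at every step of dose in 2, 0, 4, 4 and 6 of the 7 members from the first to the last day, and in 7.13%, 5.56%, 7.19%, 8.74% and 15.0% of all genes. The exception at day 18 was MCM2, with 55.9 CPM at 0 µM and 59.1 CPM at 0.16 µM. Without day 18, MCM6 was not called in the 10 µM mean (-0.07, adjusted p = 0.178), nor MCM10 in the 1.26 µM mean (-0.13, adjusted p = 0.0871). The doses share their control dishes, so the 3 comparisons are not independent of each other.

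The 7 genes moved together over the groups. Over the 20 group means, which share the day and the library name prefix, the 21 pairs of members had correlations of 0.938 to 0.996 (median 0.988). With each day's mean taken away, which leaves the differences between doses, the range was 0.809 to 0.982 (median 0.948). Within groups, over the deviations of single dishes from their group mean, it was 0.172 to 0.720 (median 0.364). All members of the ring lay under their group mean in dish 1 of 0.16 µM, dish 2 of 1.26 µM and dish 2 of 10 µM at day 18, and none did in dish 3 of 10 µM at day 18 or dish 1 of 0 µM at day 9. MCM4 was least like the rest of the ring over the group means (0.957), and MCM6 after the day mean was taken away (0.873).

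The genes most like the mean of MCM2 to MCM7 over the 20 group means, of 12398 genes with at least 5 CPM in a group, were DTL, EXO1, RRM1, ZNF726, WDR76, LIG1, DSN1 and BRCA1, with r of 0.993 to 0.996. DTL belongs to a ubiquitin ligase that acts on CDT1, RRM1 is a subunit of ribonucleotide reductase and LIG1 joins Okazaki fragments. A value over 0.95 was reached by 535 genes, 4.32%. With the day mean taken away the first 7 were RFC3, ASPM, KIF22, CDC6, BRCA1, CDCA5 and FEN1, with r of 0.972 to 0.978, and 26 genes, 0.21%, were over 0.95. CDC6 loads the MCM ring, and RFC3 is a subunit of the clamp loader.

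Among the other genes of replication, part of those that load and complete the helicase fell with 10 µM. Over the 5 days 4 of 10 licensing genes fell and 1 rose, against 8.13% and 6.93% of all genes, with a median of -0.13 and 0.00 over all genes. CDC6 (-0.25 ± 0.0307), ORC6 (-0.26) and ORC1 (-0.28) fell, as did CDT1 (-0.41), named here after its value was seen, and ORC4 rose by 0.12. Day 18, with the other library name prefix, weighed heavily in the means of the genes that fell. The differences there were -0.83 (CDC6), -0.90 (ORC6), -1.21 (ORC1) and -1.11 (CDT1). The means of this list and of those that follow are not given without day 18. At day 18 CDC6 had 36.9, 38.3 and 38.8 CPM without Pb and 23.4, 18.7 and 21.0 CPM with 10 µM, with no overlap. Of the 5 genes of CDC45 and GINS, which turn the ring into the active helicase, 4 fell (median -0.20), led by GINS2 (-0.37 ± 0.0388) and CDC45 (-0.30 ± 0.0381), and GINS1 fell by 0.20. GINS2 at day 18 went from 33.7, 33.5 and 32.4 CPM to 14.3, 13.7 and 14.8 CPM, a log2 difference of -1.16, and had no overlap.

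For the counts over the days in this paragraph, the shares of all genes were 8.13% lower and 6.93% higher. Of 8 genes that fire origins 3 fell (median -0.10): TICRR (-0.34), RECQL4 (-0.32) and DBF4 (-0.18), the regulator of the kinase that phosphorylates the ring. Of 4 fork protection genes 3 fell (median -0.21), CLSPN by 0.31, WDHD1 by 0.22 and TIMELESS by 0.20. Of 23 polymerase, clamp and clamp loader genes 18 fell and none rose (median -0.15), among them FEN1 (-0.21), RFC3 (-0.24) and RPA2 (-0.17). The median differences of these lists were smaller than the median of the MCM genes (-0.31), a difference that was not tested.

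Of the MCM relatives, which are not part of the ring, MCM8 (-0.25 ± 0.0509) and its partner HROB (-0.23 ± 0.0524) fell, and MCM9 had 0.01 ± 0.0639 (adjusted p = 0.920). A 4th gene of that list did not pass the filter. Of 5 genes that take the helicase off DNA, TRAIP fell by 0.16 and VCP, which has many other roles in protein turnover, rose by 0.06 (median -0.06). Over all genes 8.13% fell and 6.93% rose.

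Of 18 genes of E2F factors, pocket proteins and their partners, such as LIN9, 5 fell (median -0.02), against 8.13% of all genes. Of these E2F8 (-0.42), E2F2 (-0.23) and LIN9 (-0.17) had the smallest p. The other two were E2F1 (-0.34) and TFDP1 (-0.27), named after their values were seen. Of 15 G1/S cyclin, kinase and inhibitor genes 8 fell and 1 rose (median -0.15), against 8.13% and 6.93% of all genes. The 1 that rose was CDKN1A, the p21 inhibitor of cyclin-dependent kinases, by 0.49 ± 0.0357 over the days. It had 247, 238 and 245 CPM without Pb and 359, 380 and 381 CPM with 10 µM at day 18, and at day 6 its dishes overlapped (94.8, 89.7 and 82.1 CPM against 79.7, 89.6 and 101.5 CPM). CCNA2, the S phase cyclin, fell by 0.35 and CDC25A by 0.33.

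The G2/M markers moved with the MCM genes under Pb, 6 of 6 lower over the days (median -0.38), against 8.13% of all genes. Their summed level at day 18 was 387 to 412 CPM without Pb and 238 to 251 CPM with 10 µM. At day 6 it was 838 to 876 CPM and 775 to 829 CPM. Of 6 mesenchymal markers 4 were lower with 10 µM over the days, against 8.13% of all genes, with COL3A1 at -1.88 in that mean. Their summed levels at day 18 were 221 to 230 CPM without Pb and 156 to 161 CPM with it. On that day COL3A1 was not called (-0.14, adjusted p = 0.683 by limma), and VIM was at -0.55. Of 9 neuroblastoma markers 4 were lower over the days, by 0.08 (HAND2) to 0.32 (TH), against 8.13% of all genes. Their summed levels at day 18 were 13200 to 14400 CPM without Pb and 13100 to 13900 CPM with 10 µM. The part of these marker changes in the MCM differences was not tested.

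**Figure D5:**
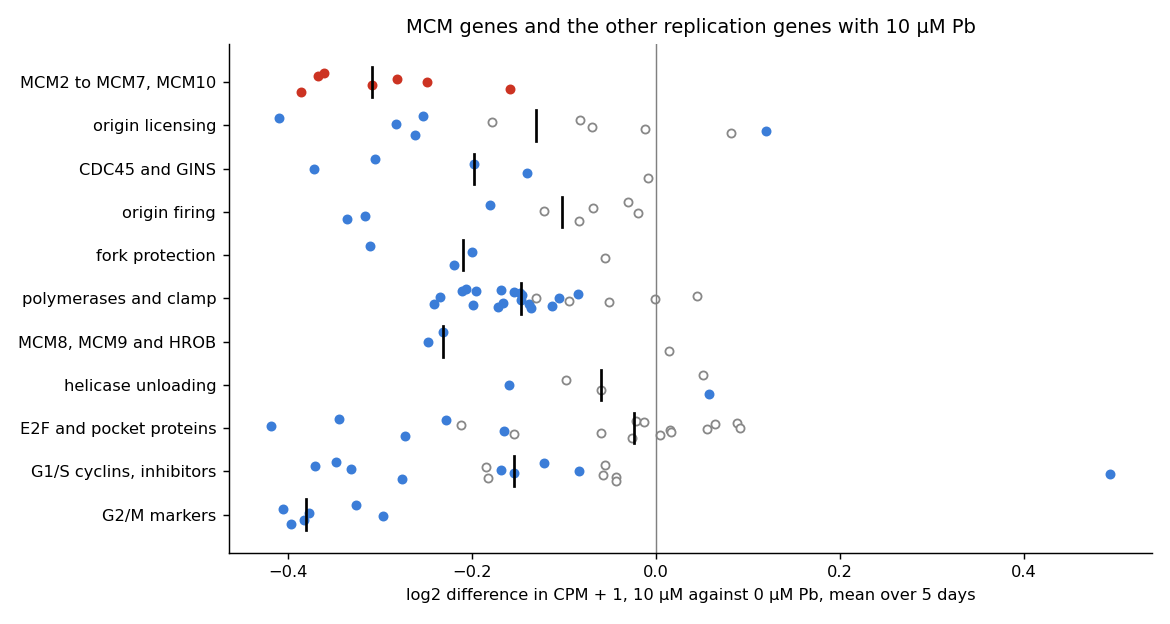
Log2 difference in CPM + 1 between 10 and 0 µM Pb, mean over the 5 days (x axis), for each gene of the MCM set (red) and of the lists of other replication and cell cycle genes (blue), 1 row a list. Filled points passed an adjusted p of 0.05, open points did not, and the bars are medians. The MCM genes all lie to the left of zero, and the far right point is CDKN1A.

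Differentiation moved the same lists. At day 12 against day 6 without Pb, 7 of 10 licensing genes, 7 of 8 firing genes, 4 of 4 fork protection genes and 20 of 23 polymerase and clamp genes fell, against 34.6% of all genes, with medians of -0.29, -0.66, -0.70 and -0.64. The polymerase subunit genes POLE4 (0.53) and POLD2 (0.19) rose. Of CDC45 and GINS 4 of 5 fell (CDC45 by 0.90, GINS2 by 0.95, GINS3 by 0.62), GINS1 among them with -1.04, and GINS4 rose by 0.86 ± 0.132, where 21.6% of all genes rose. GINS4, GINS3, POLE4 and POLD2 are named after their values were seen. CDC6 fell by 0.33 at that step, less than any MCM gene. CDKN1A went from 94.8, 89.7 and 82.1 CPM at day 6 to 294, 260 and 252 CPM at day 12, a rise of 1.58 ± 0.0798 on the log2 scale.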

How the data were processed

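RNA of 60 dishes was sequenced from pooled, barcoded libraries, per the labels' protocols. The authors deposited a table of CPM; FastQC, MultiQC, STAR and featureCounts with GRCh38 are named in the submitters' processing notes. All CPM values gave whole reads (100% within 0.01 read), so reads were recovered. The main test was limma (3.58.1, R 4.3.3) with an intensity trend on log2(CPM + 1), 1 mean per group, 40 residual degrees of freedom, genes that reached 1 CPM in 3 or more libraries (15263 genes), two-sided, Benjamini-Hochberg over these genes, threshold 0.05. Fold changes on this scale understate changes of low genes. Alternatives were edgeR 4.0.16 (quasi-likelihood, TMM) on recovered reads, a pseudocount of 0.25, no filter, median-ratio rescaling, a block, left-out libraries and fits of only the groups compared. Intervals are 95%.

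Members and gene lists were chosen with earlier results of these data known. Named beside the 7 members were up to 3 genes of each list with the smallest p for 10 µM over the days, and the 8 genes of highest correlation with the ring, of which 1 is not reported here. CPM is relative to all reads of a library, so levels per cell were not measured. Replicate numbers were not used to pair dishes.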

Additional observations from a re-analysis of the deposited data

Results flagged for a closer look

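Results are listed here because the difference with 10 µM Pb was not the same on all days, by a test of that difference itself. The moderated F test over the 5 days (limma) gave adjusted p of 2.14e-09 for MCM2, 3.85e-08 for MCM3, 0.000197 for MCM4, 2e-13 for MCM5, 0.000697 for MCM6, 7.02e-11 for MCM7 and 3.28e-07 for MCM10. The log2 difference at day 18 minus that at day 6 was -0.79 for MCM2, -0.58 for MCM3, -0.42 for MCM4, -0.87 for MCM5, -0.53 for MCM6, -0.69 for MCM7 and -0.81 for MCM10. Day 18 libraries carry another prefix in their names, and the day and what goes with the prefix cannot be told apart.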

How the results depend on the processing

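The 21 calls over differentiation and the 7 in the 10 µM mean, the 1.26 µM mean and the dose slope remained at those counts under a pseudocount of 0.25, no filter, rescaling, edgeR, the block, the 2 left-out libraries, and fits of only the groups compared; without day 18 the means had 6 and 6. The 18 calls with 10 µM within days ranged from 13 (only the groups compared) to 19, and the 16 steps between days from 11 to 17. Of these steps the 4 from day 15 to day 18 became 2 with edgeR, rescaling, no filter or the 2 left-out libraries, and 0 with only the groups compared. Counts that moved by over 1.5 times were as follows. The 11 calls with 1.26 µM became 0 with only the groups compared, and 7 to 11 without 1 replicate. The F test by day called 2 without day 18. The 0.16 µM mean had 1 call with edgeR, and 0 to 1 without 1 replicate, as had 0.16 µM within days. Of single genes none reversed; 21 lost their call with only the groups compared. The cause of these changes was not tested.

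Dishes with the same replicate number did not deviate together (median r 0.0149 over 90 pairs of the same day, from -0.356 to 0.532, and 0.00389 for other numbers). No pairing by number was thus seen in the values, and whether the dishes were paired in the experiment cannot be told from this. With the replicate block the calls numbered 18 with 10 µM, 10 with 1.26 µM and 0 with 0.16 µM within days, and 7, 7 and 0 in the means.

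Each member had at least 398 reads in each library, and each group had 3 dishes; their effect on the precision was not compared.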
